A study of Mus musculus with 6 samples.

Results

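The nuclear genes for oxidative phosphorylation were examined in splenic B cells with and without stimulation through TLR9. The members were the genes whose symbol begins with Nduf, Uqcr, Atp5 or Cox4 to Cox8, or is Sdha, Sdhb, Sdhc, Sdhd or Cyc1. Of 23420 genes in the files, 93 had such a symbol, and 86 of these passed the filter on low values (over -0.76 log2 CPM, the level of 10 reads, in at least 3 of the 6 samples). They are 86 of the 11233 genes tested. The 86 comprise 77 subunits of complexes I to V, 7 assembly factors of complex I, and 2 genes that carry older Atp5 symbols but are not subunits of ATP synthase, Atp5s and Atp5sl (now Dmac2l and Dmac2).

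B cells were purified with beads from spleens of WT BALB/c mice aged 7 to 11 weeks and cultured for 4 h at 10 M cells per mL, 10 M cells per sample, with or without 10 μg/mL of the CpG oligonucleotide ODN 1826, a synthetic TLR9 ligand. There were 3 CpG-stimulated and 3 unstimulated samples, both WT, of which replicates 1 and 2 were female and replicate 3 was male. Both groups were cultured for 4 h. Below, values after CpG are those of the CpG-stimulated samples and values before are those of the unstimulated samples. Rises and falls are thus differences between the groups and not changes over time. The labels speak of 3 mice but do not say that the samples came from separate cultures of separate animals, so p values measure the spread between these samples. Because poly-A selected mRNA was sequenced, all levels below are relative mRNA levels, in counts per M reads (CPM) on a log2 scale.

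Oxidative phosphorylation takes place at the inner mitochondrial membrane. Complex I takes electrons from NADH and complex II from succinate, both pass them through coenzyme Q to complex III, and cytochrome c carries them on to complex IV, which reduces oxygen. Complexes I, III and IV pump protons as electrons pass, and complex V, the ATP synthase, uses the proton gradient to make ATP. Most subunits are encoded in the nucleus and a few in mitochondrial DNA; the latter were not analysed here. Resting B cells are small and quiescent, and activated B cells enlarge before they divide.

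All 7 B cell markers were above the level of 10 reads, with a summed 9460 to 11389 CPM in CpG-stimulated and 12246 to 13372 CPM in unstimulated samples. None of 6 T cell and none of 4 NK cell markers reached that level in mean. Of the myeloid markers 3 of 7 did, with a sum of 13.5 to 16.5 CPM in CpG-stimulated and 8.44 to 12.5 CPM in unstimulated samples. The pDC list (Siglech, Bst2, Ccr9 and Tcf4, 3 of 4 at that level) summed to 127 to 134 CPM against 252 to 261 CPM, and the plasma cell list (3 of 3) to 95.6 to 102 against 149 to 165 CPM. Whether the B cells themselves express genes of these lists was not tested, so the sums do not measure the number of such cells. Erythroid genes (4 of 6, with Hba-a1 and Hba-a2 at the level of no reads in all samples) reached 4912 CPM in CpG replicate 2 and 3845 CPM in unstimulated replicate 2, against 384 to 611 CPM in the other samples. Their part in the results below was not tested. In bulk RNA, fewer cells of a type and less RNA per cell cannot be told apart.

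Many promoters of respiratory genes carry binding sites of the transcription factors NRF1 and GABPA, an ETS family member. RefSeq promoters (GRCm38.p6, windows of 300 bases that start mostly before the gene) were found for 72 of the 86 members, 78 promoters in all. The NRF1 letters, GCGCA and GCGC with any 1 base between them, searched on both strands, were in 19 of these, or 24.4%, against 4.60% of all 32851 mouse promoters and 10.6% of the 10674 promoters of genes tested here. The ETS letters CCGGAAG were in 17, or 21.8%, against 8.86% of all promoters and 18.6% of those of genes tested. The letters AAGATGG, bound by YY1, were in 13 (16.7%, against 6.34% and 7.35%), the E-box CACGTG, bound by MYC with MAX, in 9 (11.5%, against 7.15% and 10.5%), and TATAAA, the letters of a TATA box, in 6 (7.69%, against 13.6% and 6.88%). ETS and YY1 letters can overlap in AAG. The sequences below are the 150 bases before the start that the RefSeq promoters give for 5 members, 5′ to 3′ along the gene. They were picked after the values were seen because they hold the same letters while the mRNAs moved in different directions: Ndufb4 and Ndufs3 were called higher after CpG, Sdha and Uqcrh lower, and Sdhd was not called. Capitals mark the NRF1 letters in Ndufb4, Sdha and Sdhd, and the ETS letters, here on either strand, in Sdhd, Ndufs3 and Uqcrh.

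Ndufb4, chr16:37654369-37654518, minus strand: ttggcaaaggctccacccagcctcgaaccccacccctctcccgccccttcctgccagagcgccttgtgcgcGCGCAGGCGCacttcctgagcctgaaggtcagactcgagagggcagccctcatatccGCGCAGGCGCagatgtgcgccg
Sdha, chr13:74350241-74350390, minus strand: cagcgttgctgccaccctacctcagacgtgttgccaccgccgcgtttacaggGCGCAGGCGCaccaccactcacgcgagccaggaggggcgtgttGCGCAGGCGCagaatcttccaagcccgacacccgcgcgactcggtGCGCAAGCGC
Sdhd, chr9:50603850-50603999, minus strand: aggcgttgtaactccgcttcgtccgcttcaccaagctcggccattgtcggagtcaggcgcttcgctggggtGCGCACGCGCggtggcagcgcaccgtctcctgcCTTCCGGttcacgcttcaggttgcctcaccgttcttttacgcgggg
Ndufs3, chr2:90904722-90904871, minus strand: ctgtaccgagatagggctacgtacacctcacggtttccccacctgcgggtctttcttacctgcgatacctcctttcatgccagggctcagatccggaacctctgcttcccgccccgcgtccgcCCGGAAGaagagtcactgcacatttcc
Uqcrh, chr4:116075071-116075220, minus strand: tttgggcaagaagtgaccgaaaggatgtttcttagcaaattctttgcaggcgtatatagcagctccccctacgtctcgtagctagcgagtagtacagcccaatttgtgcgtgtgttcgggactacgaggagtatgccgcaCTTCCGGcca

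Sdha held 3 copies of the NRF1 letters and Ndufb4 held 2, the nearest starting 10 and 22 bases before the RefSeq start. In the GENCODE M21 annotation, Sdha, Ndufb4 and Ndufs3 begin farther upstream, at bases 74350280, 37654453 and 90904827. The nearest NRF1 letters of Sdha, those of Ndufb4 and the ETS letters of Ndufs3 thus lie inside the gene as annotated there. The NRF1 letters were in 14 of 53 promoters of members called higher (26.4%) and in 2 of 10 of members called lower (20%). For the ETS letters these counts were 12 of 53 and 2 of 10. These are matches of letters and say nothing about binding.

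After CpG, the mRNAs of most oxidative phosphorylation genes were higher, by a modest amount. Of 86 members, 61 (70.9%) were called higher at an FDR under 0.05 in limma, where 37.6% of all genes tested were, and 9 (10.5%) were called lower, where 36.7% of all genes tested were. The other 16 were not called. Without replicate 2 of both groups, whose erythroid genes stood out, 57 were higher and 9 lower. The share of all genes tested is not given for that fit. The median log2FC (CpG-stimulated minus unstimulated, on the log2 CPM scale) was 0.45 for the members, with quartiles of 0.15 and 0.72, and 0.0033 for all genes tested. The share of members called higher with a log2FC over 1 was 13 of 86, or 15.1%, close to the 15.8% of all genes, whereas only 1 member fell by more than that, 1.16% against 15.3%. With a threshold of 0.5 the counts were 39 higher (45.3%, background 28.6%) and 7 lower (8.14%, background 27.6%). The values of the groups did not overlap in 65 members that were higher (75.6%, background 39.1%) and in 9 that were lower (10.5%, background 38.6%). All these counts of higher members include Cox4i2, which passed the filter only through the CpG-stimulated samples and so had to come out higher. A filter of over 1 log2 CPM in at least 3 samples left it out. The members higher past 0.5 and past 1 were then 38 and 12. Replicates lay close together, with a median SD of 0.085 in CpG-stimulated and 0.071 in unstimulated samples over the members (0.13 and 0.11 over all genes tested).

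**Figure D1:**
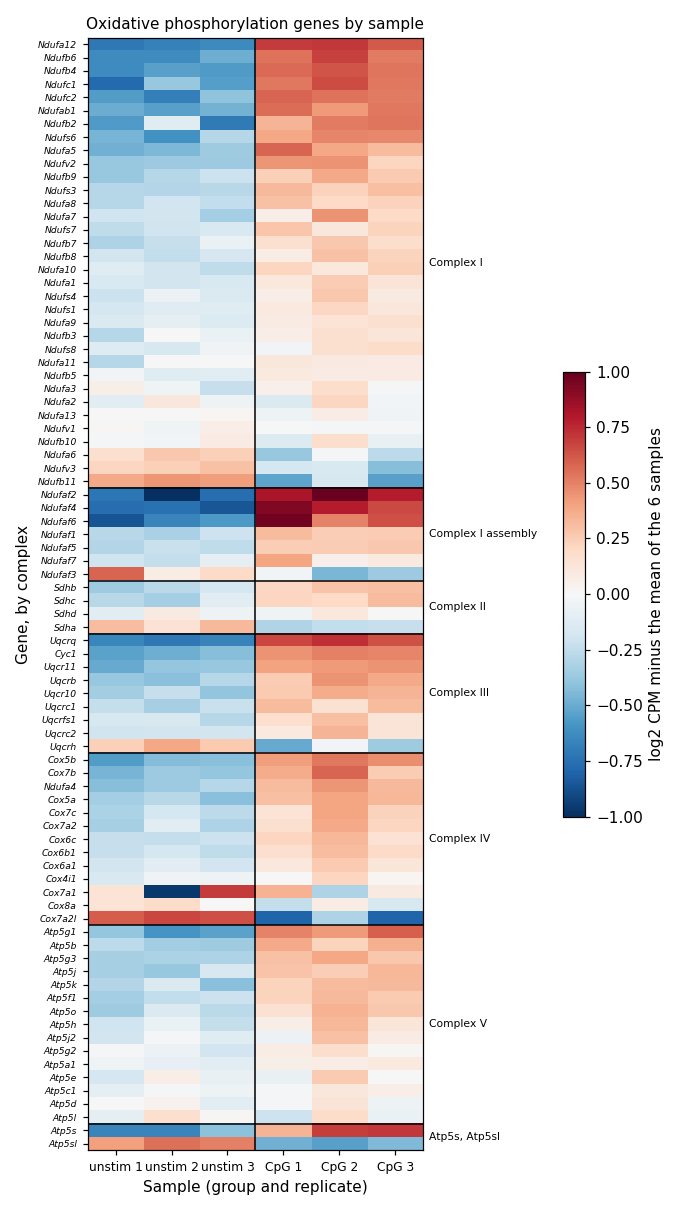
Values of 84 members in the 6 samples, as log2 CPM minus the gene's mean over the samples (color, cut off at -1 and 1), by complex and sorted by log2FC. Most rows turn from blue in the 3 unstimulated samples to red in the 3 CpG-stimulated samples, and the last rows of each complex do not. Cox4i2 was left out because its unstimulated values lie below the level of 3 reads.

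Complex I had 35 members in the test, of which 24 were higher, 3 lower and 8 not called, with a median log2FC of 0.37. The counts of each complex and its parts, here and below, stand against 37.6% higher and 36.7% lower of all genes tested. In the peripheral arm, the N module that takes electrons from NADH had 6 of 10 higher and 2 lower, and the Q module that passes them to coenzyme Q had 5 of 6 higher and 0 lower. In the membrane arm, 13 of 19 were higher and 1 lower. The core subunits moved unequally. Ndufv1, which binds NADH and the flavin, had 5.87, 5.84 and 5.85 log2 CPM in CpG-stimulated replicates 1 to 3 and 5.87, 5.82 and 5.93 in unstimulated ones. These groups overlapped, and the log2FC was -0.018 ± 0.063 (SE, n = 3 per group; FDR 0.812). Its iron-sulfur partner Ndufv2 had 6.592, 6.604 and 6.372 after CpG and 5.77, 5.79 and 5.79 before, with no overlap (log2FC 0.74 ± 0.076, FDR 9.72e-06). The iron-sulfur subunit Ndufs1 rose by a log2FC of 0.28 (FDR 0.00247). In the Q module, Ndufs3 and the iron-sulfur subunit Ndufs7 rose by 0.57 and 0.41. Ndufs8, which holds a pair of iron-sulfur clusters, had a log2FC of 0.22 (FDR 0.0279), a call that was lost without CpG replicate 2 (0.19) or 3 (0.18) and without unstimulated replicate 1 (0.21) or 2 (0.19).

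The largest rises of complex I were in accessory subunits. Ndufa12, an accessory subunit of the N module, had 6.25, 6.25 and 6.17 log2 CPM after CpG and 4.84, 4.88 and 4.92 before. The 3 CpG-stimulated samples all lay above the 3 unstimulated ones, and the fold was 2.54 (log2FC 1.35 ± 0.067, FDR 8.06e-08). Ndufb6 and Ndufb4 of the membrane arm followed, with 5.63 to 5.79 against 4.47 to 4.62 for Ndufb6 (log2FC 1.17 ± 0.081) and 4.80 to 4.90 against 3.64 to 3.72 for Ndufb4 (log2FC 1.16 ± 0.083). Of the 75-base windows of their transcripts, 22.01% of Ndufa12 are shared with Gm15920, 31.3% of Ndufb6 with Smim27 on the opposite strand, and 35.2% of Ndufb4 with Ndufb4c and Gm16056. How reads from such windows were counted was not tested. Outside the rule for named genes and picked after their values were seen, Ndufc1, Ndufc2 and the acyl carrier protein Ndufab1 also had a log2FC over 1 (1.14, 1.098 and 1.01). Ndufb2, the member of complex I with the largest SD, rose from a mean of 3.40 ± 0.31 to 4.33 ± 0.11 (SD).

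The fall of Ndufb11, an X-linked accessory subunit of the membrane arm, was the largest of complex I. Its values were 5.10, 5.47 and 5.08 after CpG and 6.002, 6.07 and 6.04 before. No CpG-stimulated sample reached the unstimulated range, and replicate 2 was the highest of the 3 (log2FC -0.82 ± 0.10, FDR 4.13e-05). Ndufv3 and Ndufa6, both accessory subunits of the N module, had a log2FC of -0.50 (3.68 to 3.96 against 4.33 to 4.402) and -0.44 (5.35 to 5.72 against 5.89 to 6.0). Among the subunits not called, 6 were accessory. Their log2FC was 0.23 for Ndufb3, 0.19 for Ndufa11, 0.14 for Ndufa3, 0.034 for Ndufa2, -0.012 for Ndufa13 and -0.025 for Ndufb10, with SEs of 0.086 to 0.10. Ndufb3 had an FDR of 0.0531, and of 0.0242 with the replicate number as a block.

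The 7 assembly factors of complex I with Nduf symbols, which help to build the complex and are not in it when finished, were higher in 6 cases and lower in 1, with a median log2FC of 0.54. They include the largest log2FC of all members that can be sized. Ndufaf2 had 3.43, 3.60 and 3.40 after CpG and 1.89, 1.51 and 1.84 before, a fold of 3.31 (log2FC 1.73 ± 0.15, FDR 2.79e-06). Ndufaf4 had 6.53, 6.39 and 6.27 after and 4.84, 4.86 and 4.75 before, a fold of 2.99 (log2FC 1.58 ± 0.082). Neither showed overlap between the groups. Ndufaf6 (log2FC 1.40), Ndufaf1 (0.54) and Ndufaf5 (0.51), chosen after their values were seen, rose too, whereas Ndufaf7 (0.36) and Ndufaf3 (-0.57) lost their calls in some comparisons without 1 sample. For Ndufaf7 these were the ones without CpG replicate 1 (0.25), unstimulated replicate 1 (0.35) or 2 (0.33), and for Ndufaf3 those without CpG replicate 3 (-0.52) or unstimulated replicate 1 (-0.42).

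**Figure D2:**
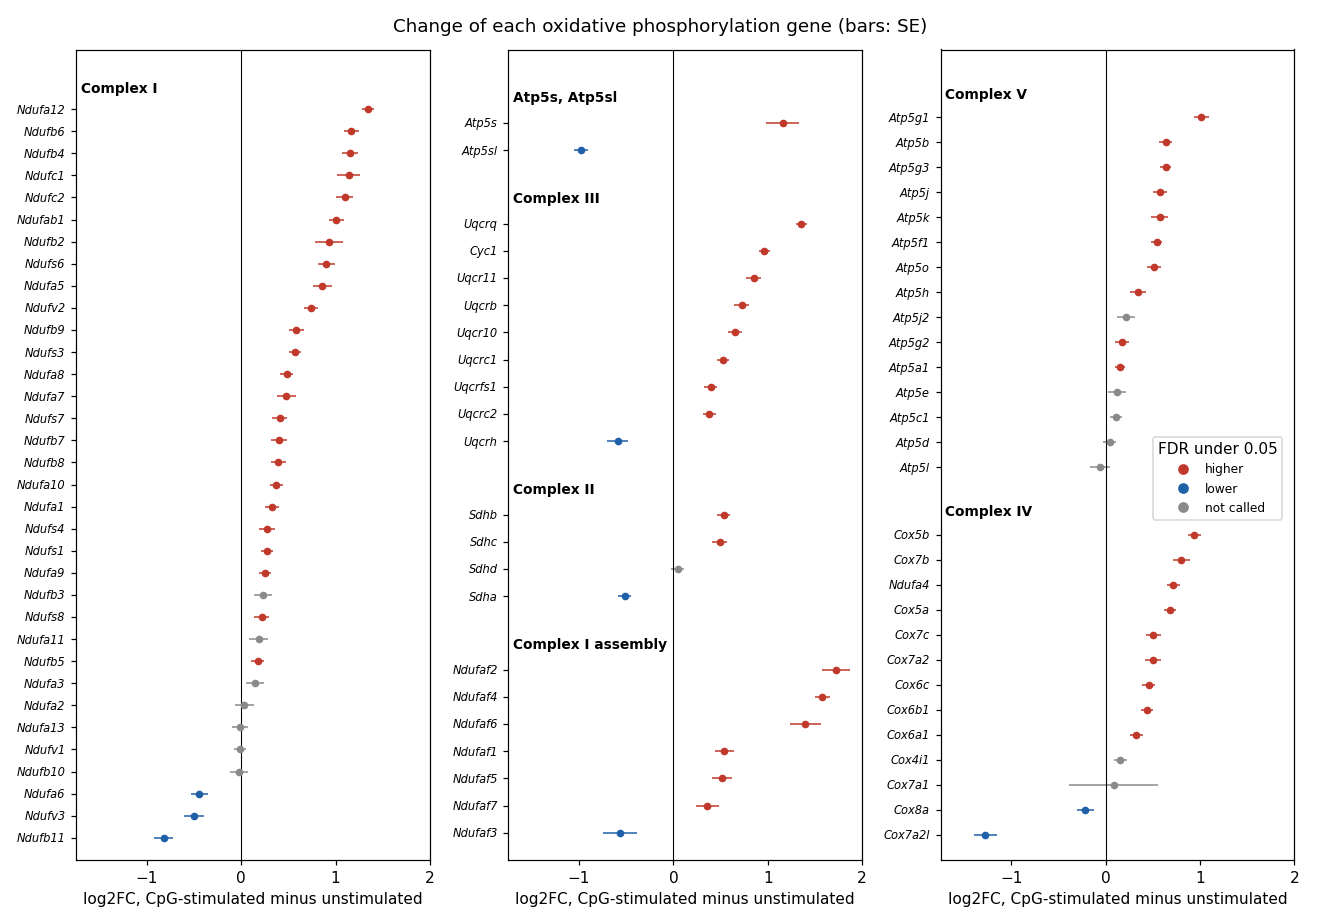
Log2FC of 84 members (x axis, CpG-stimulated minus unstimulated; bars are SE), with the genes of each complex sorted on the y axis and the color giving the call at an FDR under 0.05. Points to the right of 0 prevail in each complex, and Cox7a2l, at -1.28, is farthest to the left. Cox4i2 was left out because its log2FC has no reliable size.

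The subunits of complex II, the succinate dehydrogenase, moved in both directions, with 2 of 4 higher, 1 lower and 1 not called. For so few genes, these counts are near the shares of all genes tested (37.6% higher and 36.7% lower). The flavoprotein Sdha, which oxidizes succinate, had 7.16, 7.22 and 7.23 after CpG and 7.77, 7.60 and 7.79 before. All 3 CpG-stimulated samples lay below the unstimulated ones (log2FC -0.52 ± 0.067, FDR 5.10e-05). The iron-sulfur subunit Sdhb went the other way, from 5.59, 5.68 and 5.77 to 6.16, 6.23 and 6.25 (log2FC 0.53 ± 0.071, FDR 6.57e-05). Of the membrane anchors, Sdhc rose, with 5.59 to 5.70 after CpG and 5.05 to 5.27 before (log2FC 0.49 ± 0.081), and Sdhd, with 6.31 to 6.45 and 6.25 to 6.44, overlapped (log2FC 0.044 ± 0.073, FDR 0.598). Per kb of transcript, the unstimulated levels were 6.18 log2 CPM for Sdha, 6.03 for Sdhd, 5.49 for Sdhb and 3.47 for Sdhc. After CpG they were 5.66, 6.07, 6.02 and 3.96. The level per kb of Sdha was thus above those of Sdhd and Sdhb before CpG and below both after it.

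In complex III, 8 of 9 members were higher and 1 was lower, with a median log2FC of 0.65. Uqcrq, a small accessory subunit, had 6.72, 6.79 and 6.70 after CpG and 5.41, 5.35 and 5.39 before, a fold of 2.56 (log2FC 1.36 ± 0.062, FDR 5.65e-08). Cyc1, the cytochrome that hands electrons to cytochrome c, had 7.37, 7.41 and 7.40 against 6.38, 6.42 and 6.49 (log2FC 0.96 ± 0.059, FDR 2.65e-07). In both genes the groups lay apart by several times their SD. Uqcr11 had a log2FC of 0.85, the core subunits Uqcrc1 and Uqcrc2 0.52 and 0.38, and Uqcrfs1, the Rieske iron-sulfur protein, 0.40. The exception was Uqcrh, the hinge protein between cytochromes c1 and c. It had 6.51, 6.98 and 6.65 after CpG and 7.25, 7.39 and 7.27 before, with CpG replicate 2 nearest to the unstimulated range (log2FC -0.59 ± 0.11, FDR 0.000661).

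Complex IV, the cytochrome c oxidase, had 10 of 14 tested members higher, 2 lower and 2 not called, with a median log2FC of 0.48. Ndufa4 was counted here because its protein is now known as a subunit of this complex. Cox5b, which binds zinc in the matrix part, had 6.59, 6.70 and 6.64 after CpG and 5.62, 5.75 and 5.76 before (log2FC 0.94 ± 0.068, FDR 8.07e-07). Cox7b, a small X-linked subunit, had 6.44, 6.65 and 6.32 against 5.61, 5.71 and 5.68 (log2FC 0.80 ± 0.087). In each the CpG-stimulated samples were all the higher. Cox5a rose by a log2FC of 0.69 (FDR 4.48e-06). Cox4i1, which had the highest level of the complex also per kb of transcript, had 8.41, 8.63 and 8.43 against 8.26, 8.38 and 8.36, a log2FC of 0.16 (FDR 0.0759, and 0.0185 with the replicate number as a block).

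The largest fall of all members was that of Cox7a2l, a homologue of Cox7a2 known for a part in linking complexes III and IV into supercomplexes (chr17:83501918-83517330, minus strand). Whether it does so in these cells was not tested. It had 6.53, 7.03 and 6.54 after CpG and 7.94, 8.01 and 7.98 before. The unstimulated samples lay close together, the CpG-stimulated ones were all lower, and CpG replicate 2 was again the highest of these (log2FC -1.28 ± 0.12, FDR 4.79e-06, a 2.42-fold lower level). Of its 75-base windows, 15.3% are shared with Gm6969. Cox7a2 itself had 5.81, 6.02 and 5.87 after CpG and 5.32, 5.54 and 5.34 before (log2FC 0.50). Within each sample, the log2 ratio of Cox7a2 to Cox7a2l was therefore -0.72, -1.003 and -0.67 after CpG and -2.62, -2.47 and -2.64 before, a mean difference of 1.78. Cox8a had a log2FC of -0.22 with overlapping groups (FDR 0.0491), and this call was lost without CpG replicate 1 (-0.15) or 3 (-0.19) and without unstimulated replicate 1 (-0.20) or 2 (-0.18).

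Isoforms of complex IV known from muscle, lung or testis had low values. Cox4i2, an isoform of Cox4i1, had 0.70, 1.54 and 0.71 log2 CPM after CpG, whereas its unstimulated values of -3.02, -3.13 and -5.00 all lay below the level of 3 reads (-2.34). It passed the filter only through the CpG-stimulated samples, so it had to come out higher, and no test or size of its change is given. Without it, 60 of 85 members and 9 of 13 members of complex IV were higher. Cox7a1 lay just inside the filter, with -0.25, -0.91 and -0.50 against -0.46, -1.56 and 0.11, and was not called. Of the genes that did not pass, Cox6b2 came nearest. It had only 1 sample over the filter value, with -3.87, -4.78 and -5.23 after CpG and -2.72, -0.63 and -2.08 before. Cox6a2, Cox8b and Ndufa4l2, a homologue of Ndufa4, did not pass the filter either, and Cox7b2 and Cox8c were at the level of no reads in all 6 samples. Ndufs5, an accessory subunit of the membrane arm of complex I that cells in general use, is also listed at that level in all 6 samples, and no low expression is read from this. It shares 24.1% of its windows with BC002163.

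**Figure D3:**
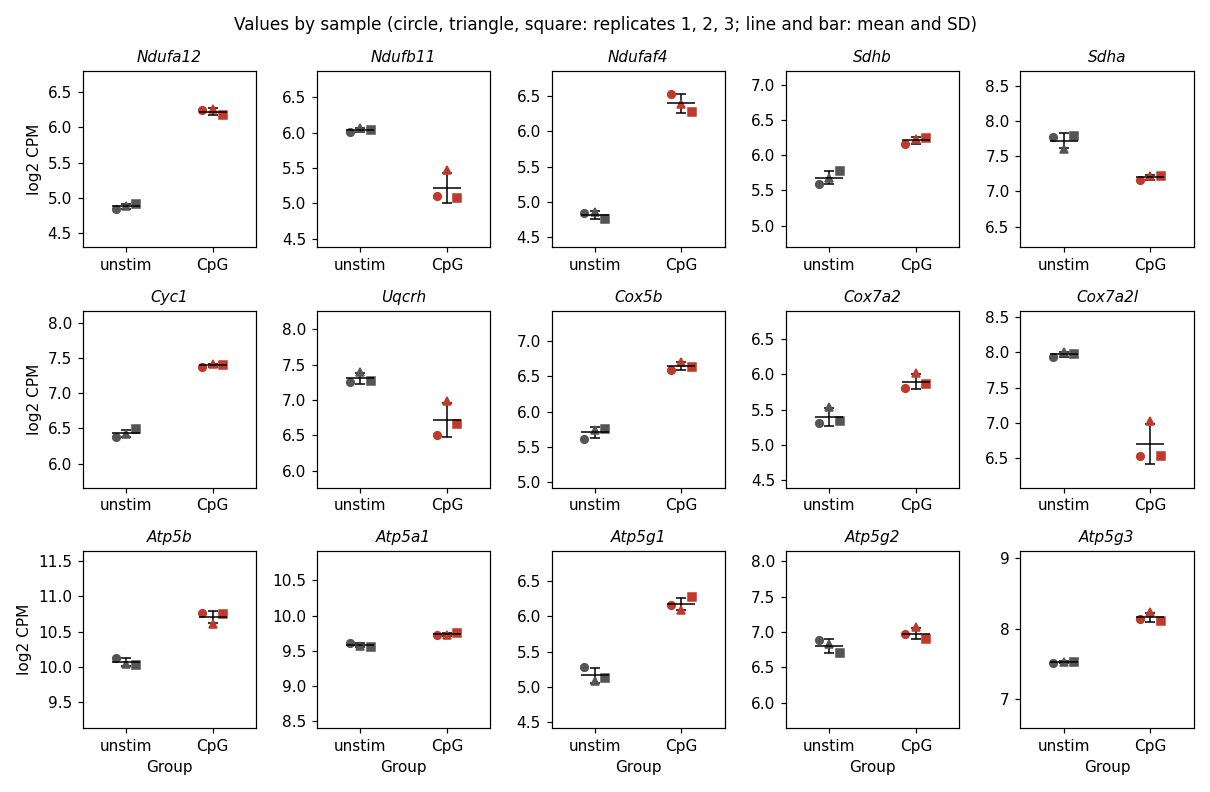
Log2 CPM of 15 members in the 3 unstimulated (gray) and 3 CpG-stimulated (red) samples, in panels that all span the same number of log2 units, with the mean (line) and SD (bar). Ndufb11, Sdha, Uqcrh and Cox7a2l lie lower after CpG while other subunits of the same complexes lie higher, and in Ndufb11, Uqcrh and Cox7a2l the triangle of CpG replicate 2 lies highest of the 3.

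Complex V had 15 members, of which 10 were higher, 0 were lower and 5 were not called, with a median log2FC of 0.34. The modules differed in their counts: 4 of 4 subunits of the peripheral stalk, 4 of 6 of the membrane part and 2 of 5 of the F1 head were called higher, with medians of 0.53, 0.39 and 0.12. The count of the F1 head was near the 37.6% of all genes tested that were called higher. The difference between these modules was not tested. In the F1 head, the catalytic beta subunit Atp5b had the highest level of all members, also per kb of transcript, with 10.77, 10.61 and 10.75 after CpG and 10.13, 10.04 and 10.03 before (log2FC 0.64 ± 0.070, FDR 1.57e-05). Its partner in the catalytic hexamer, the alpha subunit Atp5a1, had 9.72, 9.73 and 9.75 against 9.62, 9.57 and 9.56. These groups did not overlap, but the log2FC was only 0.15 ± 0.057 (FDR 0.0336), a call lost without CpG replicate 1 (0.16) or 3 (0.14) and without unstimulated replicate 2 (0.15) or 3 (0.14). The head's other subunits, Atp5c1, Atp5d and Atp5e, had a log2FC of 0.11, 0.044 and 0.12 and were not called.

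The 4 stalk subunits, Atp5f1, Atp5h, Atp5j and Atp5o, which hold the head still against the rotor, rose by 0.34 to 0.58. They were named after their values were seen, and of their windows 55.5% of Atp5o, 36.5% of Atp5h, 27.9% of Atp5f1 and 8.57% of Atp5j also occur in transcripts of other genes. In the membrane part, Atp5j2 and Atp5l were not called (0.21, FDR 0.0631, and -0.059, FDR 0.630), and with the replicate number as a block Atp5j2 was (FDR 0.00843). Atp5l shares 76.0% of its windows.

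The c subunit, which forms the rotor ring, is made from 3 genes that encode the same mature protein with different import sequences. Atp5g1 had 6.16, 6.09 and 6.27 after CpG and 5.28, 5.08 and 5.13 before (log2FC 1.01 ± 0.080, FDR 1.45e-06). Atp5g3, with the highest level of the 3 also per kb, had 8.14, 8.23 and 8.12 against 7.51, 7.53 and 7.53 (log2FC 0.64 ± 0.058, FDR 4.03e-06). Atp5g2 had 6.97, 7.06 and 6.90 against 6.88, 6.84 and 6.70. All 3 genes were higher in each CpG-stimulated sample than in any unstimulated one, but the log2FC of Atp5g2 was 0.17 ± 0.072 (FDR 0.0498). Its call was lost without CpG replicate 1 (0.18) or 2 (0.13) and without unstimulated replicate 2 (0.19) or 3 (0.12), and 86.9% of its windows are shared with Gm10175 and Gm10231. The log2 ratio of Atp5g1 to Atp5g2 within samples was -0.80, -0.97 and -0.64 after CpG and -1.604, -1.76 and -1.57 before, and that of Atp5g2 to Atp5g3 was -1.17, -1.17 and -1.21 against -0.63, -0.70 and -0.84. Among the 5 pairs of paralogs compared, the 4 that do not involve Cox4i2 had ratios that separated the groups, and the two-sided exact permutation test gave p = 0.1 for each, the smallest p that 3 against 3 samples allow (0.1 after adjustment over the 5).

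**Figure D4:**
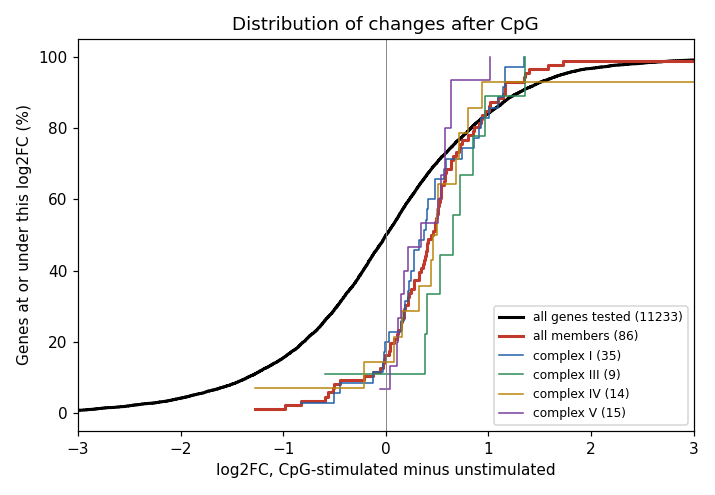
Share of genes (y axis, %) at or under a given log2FC (x axis), for all 11233 genes tested, all 86 members and 4 complexes. The curve of the members lies to the right of that of all genes up to about a log2FC of 1 and meets it there. Cox4i2 lies beyond the x axis, so the curves of complex IV and of all members end short of the top.

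Summed over the 86 members, levels were 8513, 8899 and 8595 CPM in CpG-stimulated and 6792, 6878 and 6779 CPM in unstimulated samples. The groups did not overlap, and the mean share of all CPM was 0.867% ± 0.027 (SD, n = 3) after CpG and 0.682% ± 0.0095 before, a ratio of 1.27. Without Atp5b the ratio was 1.22. The sum of the assembly factors rose most (144 ± 11.2 CPM against 66.4 ± 1.22, a ratio of 2.17), followed by complex III (1.37), complex V (1.34), complex I (1.27) and complex IV (1.14). For complex II the ratio was 0.935, with 342 to 360 CPM after CpG and 365 to 393 CPM before. These are sums over genes of unequal length, so they compare samples and not complexes. Genes with high levels weigh most in them, as Atp5b does in complex V and Ndufaf4 in the assembly factors. The ratios of these sums without those genes were not computed, so the order of the ratios may rest on single genes. Per kb of transcript, the highest unstimulated levels among the members were those of Atp5b (9.13 log2 CPM), Cox4i1 (8.72), Atp5a1 (8.28), Atp5e (8.24) and Uqcrh (8.17).

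**Figure D5:**
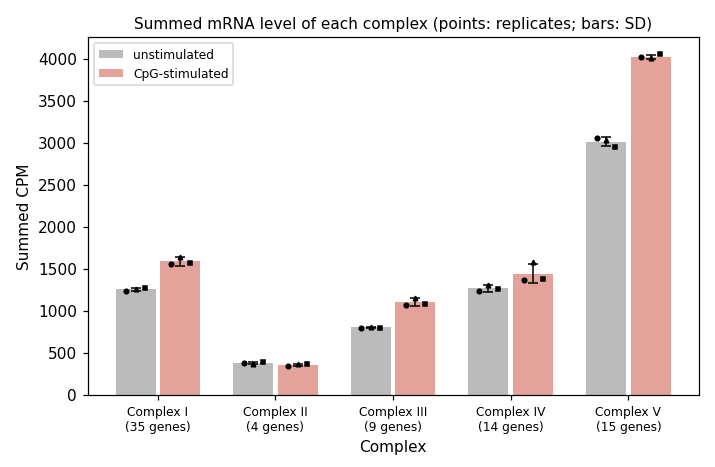
Summed CPM (y axis) of the tested members of each complex (x axis), as group means with SD bars and the 3 samples as points (circle, triangle and square for replicates 1 to 3). Complexes I, III, IV and V lie higher in the 3 CpG-stimulated samples than in the 3 unstimulated ones, complex V with 4005 to 4050 against 2951 to 3049 CPM, and complex II lies lower.

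The other genes of the pathway were described from lists. Of 6 genes with other names that encode subunits or partners of the complexes, 3 were higher, 1 was lower and 2 were not called. Over all genes tested, 37.6% were higher and 36.7% lower, and the counts of each list below stand against these shares. Cycs, the cytochrome c that carries electrons from complex III to IV, had 7.14, 7.18 and 7.14 after CpG and 5.71, 5.95 and 5.72 before, with no overlap and a fold of 2.56 (FDR 1.64e-07). Atpif1, an inhibitor of ATP hydrolysis by complex V, fell by 0.63 on the log2 scale (FDR 0.00268). In the full list of complex I assembly factors, which adds 7 genes to those above, 12 of 14 were higher and 2 lower. For complex II these counts were 1 and 1 of 3, for complex III 3 and 0 of 4, for complex IV 14 and 1 of 22, and for complex V 2 and 0 of 3. Their largest changes were in Acn9 (0.84) and Sdhaf1 (-0.46), which help to mature the iron-sulfur subunit of complex II, in Lyrm7 (1.598) and Uqcc (0.63) for complex III, in the copper chaperone Sco1 (1.13) and the mitochondrial mRNA-binding protein Lrpprc (1.03) for complex IV, and in Tmem70 (1.04) and Atpaf2 (0.68) for complex V.

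For the genes around the chain, the shares of all genes tested that were higher (37.6%) and lower (36.7%) are again the background. Coenzyme Q synthesis had 5 of 13 higher and 4 lower, near that background, with Pdss1, which makes the side chain of the coenzyme, at a log2FC of 2.24 and Coq4 at 1.65. The largest fall of this list was in Coq10a (-1.48), named after its value was seen. Of 6 other enzymes that feed electrons to coenzyme Q, 4 were higher and 2 lower, the latter near the background, among them Prodh, which oxidizes proline (1.13), and Etfdh, which takes electrons from fatty acid oxidation (-1.13). Of 7 genes for the exchange of ATP and phosphate and for uncoupling, 5 were higher and 2 lower. The ADP/ATP carrier Slc25a5 (0.65) and the outer membrane channel Vdac1 (0.62) changed most. The 2 lower were Slc25a4, another ADP/ATP carrier (-0.61), and the uncoupling protein gene Ucp2 (-0.22), both named after their values were seen. Of 11 genes for the transcription and copying of mitochondrial DNA, 8 were higher and 2 lower, led by the elongation factor Tefm (1.99) and the topoisomerase Top1mt (1.74).

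Among 12 regulators of nuclear respiratory genes, 7 were higher, 4 lower and 1 not called, where 37.6% and 36.7% of all genes tested were higher and lower. Myc had 11.01, 10.70 and 10.91 after CpG and 9.96, 9.88 and 9.63 before (log2FC 1.05 ± 0.10, FDR 7.77e-06). Ppargc1a, the coactivator known for driving mitochondrial genes in muscle and brown fat, fell to -0.70, -3.15 and -1.86 from 1.59, 1.68 and 1.56. Its unstimulated values lay close together, and of the CpG-stimulated values the one of replicate 2 was below the level of 3 reads. The CpG-stimulated value of replicate 3 was also below the filter value, and that of replicate 1 was just above it. The unstimulated samples alone carried Ppargc1a past the filter, which favors a lower call, so no size of its fall is given. It is counted among the 4 lower regulators. Some of the transcription factors whose letters were searched in the promoters are in this list. Besides Myc, Nrf1 had a log2FC of 0.23, Gabpa of 0.26 and Yy1 of -0.37, and the GABP partners Gabpb1 and Gabpb2 had 0.99 and -0.77. These last 5 were named because of the promoter search and not for their change.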

How the data were processed

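The members and gene lists were chosen with earlier results of these data known. Per the labels and the methods, the authors sequenced poly-A RNA as paired reads of 75 bases, aligned them to mm10 (GRCm38) with STAR 2.6.1a, counted them with featureCounts (Subread 2.0.1) and applied quantile normalization and voom; FastQC 0.11.7 and Trim Galore 0.6.5 are also listed. The strand setting of the counting is not given in the sources used here. The deposited values are log2 CPM. The most common value was taken as 0 reads plus the voom offset of 0.5, which gives a common library of 17.8 M reads, a value of -0.76 for 10 reads and of -2.34 for 3. Quantile normalization evens out depth (linear sums were 992384 to 1012400 CPM), so depth per sample is unknown and total RNA per cell cannot be seen.

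Over all 11233 genes that passed the filter, a linear model was fitted with limma (version 3.58.1, under R 4.3.3; lmFit, eBayes with trend), with the FDR after Benjamini and Hochberg. It was first tested on simulated data. Deviations of samples with the same replicate number correlated at 0.435, 0.224 and 0.300, other pairs at -0.281 to 0.0279, so values with the same number vary together. The main fit has no block, as in the study's methods, and the fit with the number as a block was run as an alternative. The labels do not state a pairing, and the deposited values carry a shift by replicate number that can also give this. SciPy 1.17.1 was used for permutation tests. Windows of 75 bases were compared among annotated GENCODE M21 transcripts, and lengths are those of principal transcripts. Named genes were, per complex, the 3 largest rises and falls past the FDR, the highest mean and the largest SD, besides fixed redox subunits, paralogs, members not called, members at the filter, and the 2 most changed genes of each list. DESeq2 and edgeR, which need counts, could not be applied to log values and were left out. Mitochondrially encoded subunits were not analysed here. A further member is counted in the totals but is not reported here.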

Additional observations from a re-analysis of the deposited data

How the results depend on the processing

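Between 57 and 64 members were called higher and 7 to 9 lower under the alternatives with the same threshold (the block, filters, scale, trend, centring, and samples left out), and the median log2FC was 0.42 to 0.46. With the replicate number as a block, 64 were higher and 9 lower. The block added Ndufb3, Atp5j2 and Cox4i1 and changed no other call among the members. A test against a log2FC of 0.5 (limma's treat) called 24 higher and 3 lower. The shares of all genes tested are not given for any of the other fits in this section. Their counts thus show only how far the calls of the members held. The number with a log2FC under -1 was 2 without a filter. Without a variance trend 1 member of complex IV was lower. Leaving out each sample in turn gave 57 to 59 higher, 7 to 9 lower, 1 to 2 under -1, 0 to 1 lower assembly factors and 1 to 2 lower members of complex IV, and 63 of 70 calls held in every such fit. The log2 ratio of Cox4i1 to Cox4i2 has no reliable size, since it rests on Cox4i2 values below 3 reads: it came to -4.54 on the deposited scale and to -1.31 as log2(CPM + 1). The ratio of summed CPM was 1.22 without Atp5b.

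The sign of 7 genes that were not called depended on which sample was left out. Their log2FC then lay between -0.165 and 0.030 in Atp5l, -0.118 and 0.037 in Ndufb10, -0.38 and 0.46 in Cox7a1, -0.052 and 0.012 in Ndufa13, -0.0087 and 0.079 in Atp5d, -0.067 and 0.11 in Ndufa2, and -0.045 and 0.0095 in Ndufv1. Without replicate 2 of both groups, an alternative chosen after seeing the data because of its erythroid genes, 57 members were higher and 9 lower, and Ndufa2 and Cox7a1 were at -0.00050 and -0.20. Among the 50 members without a window shared with another gene, also chosen after seeing the data, 68% were higher and 12% lower. Without Cox4i2, likewise, 70.6% of 85 members were higher. With 3 samples a group and unknown depth, changes of the size of the SE (median 0.080) could not be told from none.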

Other observations

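Replicate 2 stood out among the members. In 29 of 86 (33.7%) it was the highest replicate of both groups, against 14.6% of all genes tested. For replicate 1 this was so in 3 members (3.49%, against 19%) and for replicate 3 in 7 (8.14%, against 11.9%). The 29 had a median transcript length of 0.682 kb and the other 57 of 1.08 kb. Across the 86 members, which share their libraries, the excess of replicate 2 had a Spearman rho of -0.38 with log2 transcript length, while the log2FC had one of 0.045 with that length and of -0.41 with the unstimulated level. These are descriptions over genes, which are not independent. The unstimulated mean is also subtracted in the log2FC, so noise in it alone pulls the rho with the unstimulated level below 0. No dependence of the change on the level is read from that rho. Erythroid genes were highest in replicate 2 of both groups, and their part in this was not tested.

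The 2 genes with older Atp5 symbols went apart. Atp5s had 2.17, 2.52 and 2.54 log2 CPM after CpG and 1.17, 1.17 and 1.42 before (log2FC 1.16, FDR 0.000181), and Atp5sl had 4.56, 4.499 and 4.60 after and 5.45, 5.59 and 5.55 before (log2FC -0.98, FDR 1.26e-06). In neither did the groups overlap. The protein now named Dmac2 is known to take part in building the membrane arm of complex I.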
